A study of Mus musculus with 8 samples.

Results

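Retinoic acid genes were followed through the neural differentiation of mouse embryonic stem cells, in total RNA and in the RNA bound to Argonaute proteins. The genes were Crabp1, Crabp2, Rarb, Cyp26a1, Stra6, Stra8, Dhrs3 and Aldh1a2, taken as every non-control probe whose gene name on the array is one of these. They were 8 of 36163 gene names and 10 of 55681 probes, with 3 probes for Rarb and 1 for each other gene. All arrays came from the embryonic stem cell line E14Tg2A (strain 129/Ola), a line that lacks the housekeeping gene Hprt, and no group was given a drug. ES cells (0 days in vitro) grew in medium with serum and the cytokine LIF. Epiblast-like aggregates (ELA, 2 days) floated in a chemically defined medium with N2 and B27, the B27 being without vitamin A. Neural progenitor cells (NPC, 6 days) grew attached to poly-ornithine and laminin in the same medium, and the mixed progenitor and neuron stage (NPC/Neu, 10 days) in that medium without B27. At each of these 4 stages 1 array held total RNA and 1 held Ago-RNA, the RNA recovered from the cytosolic fraction with the pan-Argonaute antibody 2A8. Each array held RNA pooled from 3 independent experiments, so there was 1 value per condition, no spread between replicates could be measured and no p-value is given.

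Retinoic acid is made inside cells from retinol, the alcohol form of vitamin A, by a dehydrogenase step to retinaldehyde and an irreversible step to the acid. It binds nuclear receptors of the RAR family, which sit on DNA as dimers with RXR partners, and the genes they switch on include enzymes and binding proteins that limit the signal. In the embryo this pathway patterns the hindbrain and spinal cord and starts meiosis in germ cells. Argonaute proteins carry microRNAs, and an mRNA enriched with them is read in this kind of experiment as held by the silencing complex.

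Signals are given as log2 of the background-corrected, quantile-normalized intensity. The Ago enrichment E is the log2 Ago-RNA signal minus the log2 total RNA signal at a stage, and its variation is the difference of E between stages. The only error that could be measured was that between spots of the same probe within an array. Over 399 probes printed in 10 spots each, the SD of a single-spot log2 difference for total RNA was 0.17 at the ES–ELA transition and 0.16 at the next, ELA–NPC, then 0.13 at NPC–NPC/Neu, and lay between 0.13 and 0.15 for E. It covers neither culture nor hybridization. Levels of different probes are not compared with each other, since a probe's brightness depends on its sequence.

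The stage markers followed the labels for the most part. However, the naive pluripotency genes rose again from NPC to NPC/Neu, and neuronal markers had signal in ES already. The summed total RNA signal of 7 naive pluripotency genes was 17.41 on the log2 scale in ES, 15.14 in ELA, 12.07 in NPC and finally 13.05 in NPC/Neu. That of 4 primed epiblast genes was highest in ELA, at 18.42. Neural progenitor markers reached 17.26 in NPC and 18.20 in NPC/Neu. The summed signal of 5 neuronal markers rose from 15.98 in NPC to 18.07 in NPC/Neu. It was already 15.33 in ES, with 4 of the 5 well above background, and was lowest in ELA, at 14.97. Fewer cells of a type and less RNA per cell cannot be told apart in such bulk RNA. The ES Ago-RNA array was the brightest before normalization, with an upper quartile of the mean signal of 3039 against 1060 to 1774 on the other 7, and quantile normalization removes any such overall difference. No spot of any array was saturated.

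Promoter sequence is shown first, since Rarb and Cyp26a1 share an element there. Cyp26a1 had its highest total RNA in NPC, as did the brightest of 3 Rarb probes, while the 2 dimmer Rarb probes were highest in NPC/Neu. Retinoic acid receptors bind pairs of a hexamer, searched for here as AGGTCA and its variants with the letters AGTTCA, those of GGGTCA and also GGTTCA, and the classical element is a direct repeat of it with 5 bases between. RefSeq promoter windows (build GRCm38.p6, from 250 bases before to 50 bases after a transcript start) were found for 7 of the 8 genes, with 12 windows in all, and were searched on both strands. The direct repeat was present in Rarb, at bases -53 to -37 from the start, and in Cyp26a1, at bases -32 to -16 on the opposite strand. The same repeat was present in 32 of all 32851 windows (0.0974%), whereas a lone hexamer was present in 43.7% of them. Of the 40 genes with a window among the members and the wider pathway list below, only Rarb and Cyp26a1 held it. Crabp1, Stra6 and Aldh1a2, also highest in NPC total RNA, were thus without it in their windows. Crabp2, likewise highest in NPC, had no window. A link between the element and the NPC levels of Rarb and Cyp26a1, both known retinoic acid targets, was not tested. The 250 bases before the start of each are shown 5′ to 3′ on the gene's strand, with the direct repeat in capitals, at chr14:16575477-16575726 (minus strand) for Rarb and chr19:37697558-37697807 (plus strand) for Cyp26a1.
Rarb: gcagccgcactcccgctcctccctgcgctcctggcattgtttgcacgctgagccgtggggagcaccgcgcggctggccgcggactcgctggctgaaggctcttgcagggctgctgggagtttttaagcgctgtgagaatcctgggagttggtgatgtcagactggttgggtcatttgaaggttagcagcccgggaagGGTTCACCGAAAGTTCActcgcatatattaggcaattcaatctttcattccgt
Cyp26a1: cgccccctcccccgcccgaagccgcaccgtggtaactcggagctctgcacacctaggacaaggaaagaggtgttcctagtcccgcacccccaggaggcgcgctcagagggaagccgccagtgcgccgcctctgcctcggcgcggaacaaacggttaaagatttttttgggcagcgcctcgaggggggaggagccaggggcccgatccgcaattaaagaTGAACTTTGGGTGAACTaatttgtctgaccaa
In Rarb the repeat reads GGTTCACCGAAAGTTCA and in Cyp26a1, on the minus strand, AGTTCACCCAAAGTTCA, so both end in the same hexamer, AGTTCA. Stra8 held 2 hexamers, starting at -194 and -38, too far apart for the repeat searched, and 1 of the 4 Stra6 windows held a hexamer at base 15. No window of Crabp1, Dhrs3 or Aldh1a2 held one, which says only that these letters are not within these bases.

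**Figure D1:**
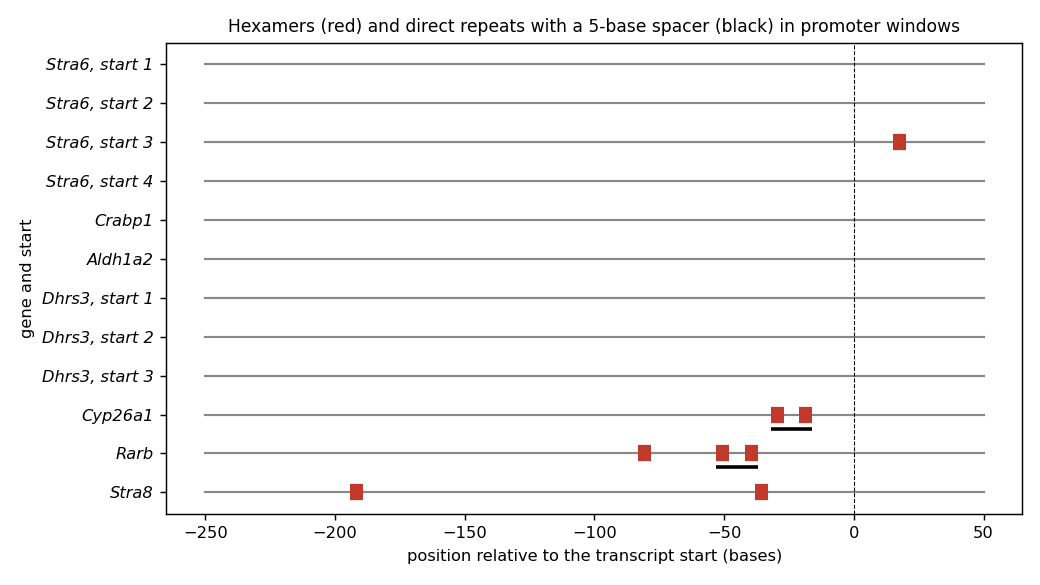
Map of the receptor hexamer in the 12 RefSeq promoter windows of 7 members. The x axis is the position in bases from the transcript start (dashed line), each row is a start, red blocks are hexamers and black bars are direct repeats with 5 bases between, present only in the Rarb and Cyp26a1 windows.

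The uptake and transport genes Stra6, Crabp1 and Crabp2 all had their highest total RNA in NPC. Stra6, the membrane receptor that takes up retinol from its plasma carrier, lies at chr9:57911595-58001803 (mm9, plus strand) and was read by a 3′ UTR probe that matches 4 of its 13 annotated protein-coding transcripts. In total RNA the signal was 7.24 in ES, 8.69 in ELA, 9.37 in NPC and then 7.89 in NPC/Neu. In Ago-RNA it was 6.99 in ES, 8.49 in ELA, 9.61 in NPC and finally 8.87 in NPC/Neu. Both fractions therefore peaked in NPC, but the later fall was smaller in Ago-RNA. Total RNA was 2.73-fold higher in ELA than in ES, 1.60-fold higher in NPC than in ELA and 2.79-fold lower in NPC/Neu than in NPC. Its E was -0.24 in ES, -0.19 in ELA, 0.24 in NPC and then 0.98 in NPC/Neu, a variation of 1.23 from first to last stage, where 90% of gene names lay between -0.86 and 0.85. When the scanner's own processed signal, which has no offset, was scaled to each array's 75th percentile (the processed-signal scaling below), the ES value was -1.48 and that variation 2.41. Under that scaling the log2 change of total RNA from ES to ELA was 1.98, against 1.45 in the main processing. The ES signals lay near the lowest that counted as well above background, 6.74 in total RNA and 6.73 in Ago-RNA.

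Crabp1, a cytoplasmic protein that binds retinoic acid, had the largest measured log2 change of the 8 genes. The gene lies at chr9:54612555-54620917 (mm9, plus strand), and its 60-base probe matches its coding sequence at chr9:54616192-54616251. The probe is shown because that change rests on it, and because Crabp2 is a close relative.
Crabp1 probe: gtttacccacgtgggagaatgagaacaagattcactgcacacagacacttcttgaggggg
Its best ungapped match in the Crabp2 transcript covered 39 of 60 bases, and the Crabp2 probe, in that gene's 3′ UTR, matched 28 of 60 bases in Crabp1. The total RNA signal of Crabp1 was 10.99 in ES, 10.42 in ELA, 15.85 in NPC and finally 14.65 in NPC/Neu. The Ago-RNA signal was 10.09 in ES, 10.65 in ELA, 16.19 in NPC and then 13.80 in NPC/Neu. The 2 early stages and the 2 late stages were thus far apart in both fractions, by 43.1-fold in total RNA from ELA to NPC. That change ranked 29 from the top of 36006 gene names, and total RNA was then 2.30-fold lower in NPC/Neu than in NPC. The Ago enrichment of Crabp1 was negative at the first and last stages, with E at -0.90 in ES, 0.23 in ELA, 0.34 in NPC and finally -0.85 in NPC/Neu. Its variation was 1.13 at the ES–ELA transition and -1.19 at NPC–NPC/Neu. With Ago-RNA and total RNA arrays normalized apart, the latter was -0.89 and E was -0.53 in ES and -0.42 in NPC/Neu. Under the processed-signal scaling the latter was -0.70, with E at -0.49 in NPC/Neu.

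Crabp2, which delivers retinoic acid to its nuclear receptors, lies at chr3:87752588-87757298 (mm9, plus strand). Total RNA gave a signal of 13.53 in ES, 15.85 in ELA, 18.07 in NPC and then 16.26 in NPC/Neu. Ago-RNA gave 13.13 in ES, 16.24 in ELA, 19.16 in NPC and finally 17.22 in NPC/Neu. Unlike Crabp1, it was already 5.01-fold higher in ELA than in ES in total RNA, the 72nd highest change of 36015 gene names. It was a further 4.64-fold higher in NPC and then 3.51-fold lower in NPC/Neu. Its E was -0.40 in ES, 0.38 in ELA, 1.09 in NPC and then 0.96 in NPC/Neu, and the ES value was 0.07 when the fractions were normalized apart. The NPC value, the only one past 1, was 0.88 with the fractions normalized apart and 0.77 under the processed-signal scaling, under which that of NPC/Neu was 0.59. Its variation from ES to NPC/Neu was 1.37, and 0.83 with the fractions normalized apart.

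**Figure D2:**
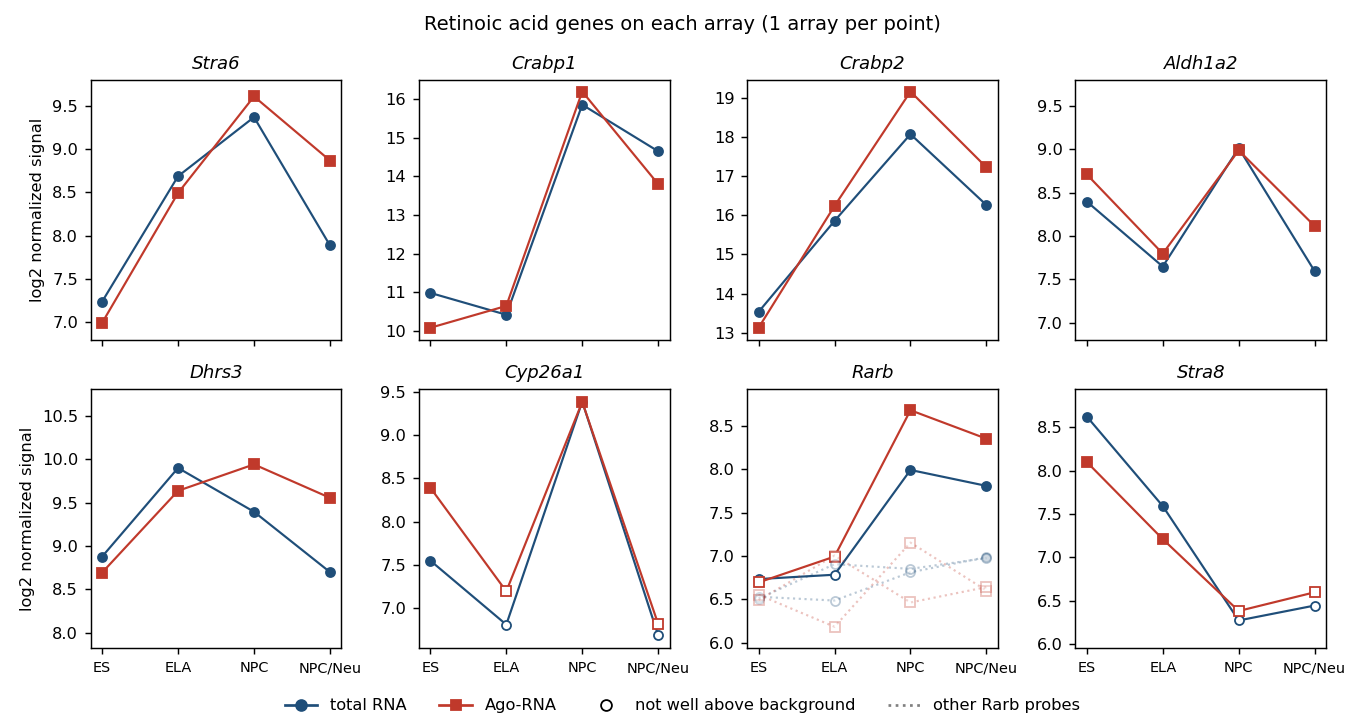
Log2 normalized signal (y axis, with its own range in each panel) of the 8 genes at the 4 stages (x axis), 1 array per point, for total RNA (blue circles) and Ago-RNA (red squares), with open symbols where the probe was not well above background. Stra6, Crabp1, Crabp2, Aldh1a2, Cyp26a1 and the brightest Rarb probe are highest in NPC total RNA, Dhrs3 in ELA and Stra8 in ES, and the 2 dimmer Rarb probes are dotted.

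Among the enzymes, Aldh1a2, which oxidizes retinaldehyde to retinoic acid and is the main such enzyme of the early embryo, lies at chr9:71063596-71144050 (mm9, plus strand). Measured in total RNA, the signal was 8.40 in ES, 7.65 in ELA, 9.02 in NPC and finally 7.59 in NPC/Neu. The matching Ago-RNA values were 8.71 in ES, 7.80 in ELA, 8.99 in NPC and then 8.12 in NPC/Neu. Levels alternated, with ES and NPC above ELA and NPC/Neu in both fractions, and the ELA and NPC/Neu total RNA values lay within the spread of repeated spots of each other. Total RNA was 1.68-fold lower in ELA than in ES, 2.58-fold higher in NPC than in ELA and 2.68-fold lower in NPC/Neu than in NPC. Its E was 0.31 in ES, 0.15 in ELA, -0.03 in NPC and finally 0.52 in NPC/Neu, and the sign of the ELA value turned under the processed-signal scaling, where that of NPC/Neu was 0.23, and the sign of the NPC value with the fractions normalized apart.

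Dhrs3, which reduces retinaldehyde back to retinol and so limits the acid made, lies at chr4:144482730-144518112 (mm9, plus strand), and its 3′ UTR probe matches 4 of the 6 annotated transcript sequences searched. Its total RNA signal was 8.88 in ES, 9.90 in ELA, 9.39 in NPC and then 8.70 in NPC/Neu. Its Ago-RNA signal was 8.69 in ES, 9.64 in ELA, 9.94 in NPC and finally 9.56 in NPC/Neu. Of the members, it alone had its highest total RNA in ELA, 2.03-fold above ES (a log2 change of 1.02, or 0.93 with the fractions normalized apart). From ELA to NPC the fractions moved apart, with total RNA 1.42-fold lower and Ago-RNA higher by 0.30 on the log2 scale. Its E was -0.18 in ES, -0.26 in ELA, 0.55 in NPC and then 0.86 in NPC/Neu, with a variation of 0.81 at the ELA–NPC transition. The values of NPC and NPC/Neu stayed above those of ES and ELA under each of the alternatives.

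Cyp26a1, the cytochrome that breaks retinoic acid down and a known target of its receptors, lies at chr19:37772298-37776018 (mm9, plus strand). Its probe, shown since the rise and fall around NPC rests on it, matches coding sequence at chr19:37775566-37775625.
Cyp26a1 probe: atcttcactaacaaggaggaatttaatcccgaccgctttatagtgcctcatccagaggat
In total RNA the signal was 7.55 in ES, 6.81 in ELA, 9.38 in NPC and finally 6.69 in NPC/Neu. In Ago-RNA it was 8.39 in ES, 7.19 in ELA, 9.38 in NPC and then 6.82 in NPC/Neu. In ELA and NPC/Neu the probe was not well above background in either fraction, so a change to or from these stages is a bound, taken against the higher of the lowest signal that counted as well above background on that array and the probe's own signal. Total RNA was at least 1.50-fold lower in ELA than in ES, at least 5.37-fold higher in NPC than in ELA and at least 6.04-fold lower in NPC/Neu than in NPC. In Ago-RNA the bounds for the 2 later transitions were 4.55-fold and 5.37-fold, in the same directions. Its E was 0.84 in ES and 0.00 in NPC, the stages at which it was measured.

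Rarb, a retinoic acid receptor that is itself switched on by retinoic acid, lies at chr14:17263356-17651381 (mm9, minus strand) and had 3 probes that disagreed. The brightest, in the 3′ UTR, matches 2 of 3 annotated protein-coding transcripts. Total RNA gave a signal of 6.73 in ES, 6.78 in ELA, 7.99 in NPC and finally 7.81 in NPC/Neu. Ago-RNA gave 6.70 in ES, 6.99 in ELA, 8.68 in NPC and then 8.35 in NPC/Neu. In ES and ELA it was not well above background in either fraction. From ELA to NPC it was at least 2.05-fold higher in total RNA and at least 3.23-fold higher in Ago-RNA, and NPC and NPC/Neu differed by 0.18 in total RNA on the log2 scale. Its E was 0.69 in NPC and 0.54 in NPC/Neu. The coding-sequence probe, at chr14:17264648-17264707, was well above background only in NPC/Neu total RNA, at 6.99, and is shown because all 3 annotated transcripts carry it.
Rarb coding probe: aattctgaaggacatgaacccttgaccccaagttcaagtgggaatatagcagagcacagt
The remaining probe matches no annotated transcript of the gene and was not well above background on any array. The mean of the 3 probes, used where Rarb is counted as a gene name below, changed by 0.49 at the ELA–NPC transition against 1.21 for the brightest.

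Stra8, which germ cells need to enter meiosis and which retinoic acid switches on there, lies at chr6:34870163-34889342 (mm9, plus strand) and was highest in ES. Measured in total RNA, the signal was 8.62 in ES, 7.59 in ELA, 6.27 in NPC and finally 6.44 in NPC/Neu. The matching Ago-RNA values were 8.10 in ES, 7.21 in ELA, 6.38 in NPC and then 6.60 in NPC/Neu. Neither fraction was well above background in NPC or NPC/Neu. Total RNA was 2.05-fold lower in ELA than in ES, at least 1.80-fold lower in NPC than in ELA and at least 3.57-fold lower in NPC/Neu than in ES. The log2 change at ES–ELA was -1.03, or -0.97 with the fractions normalized apart and -1.65 under the processed-signal scaling. Its E was -0.53 in ES (-1.23 under the processed-signal scaling) and -0.38 in ELA. Of 5 germ cell markers, all were well above background in ES and ELA total RNA and 2 in NPC and NPC/Neu, with a summed signal of 14.03 in ES, 13.88 in ELA, 9.63 in NPC and finally 9.84 in NPC/Neu. Dazl, Ddx4 and Dppa3 were the 3 not well above background at the late stages, and the ELA sum is without Prdm1, whose spot was irregular on that array. The part of germ cell-like RNA in the Stra8 result was not tested.

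Counted together, a change in total RNA of 1 or more on the log2 scale (2-fold) was reached at ES–ELA by 3 members that were higher, Crabp2, Stra6 and Dhrs3, where 3.04% of all gene names were as much higher. Stra8 alone was as much lower, against 3.09% of gene names. At ELA–NPC, 4 members were higher, namely Crabp1, Crabp2, Cyp26a1 and Aldh1a2, against 7.13% of gene names, and 1, Stra8, was lower, against 6.62%. At NPC–NPC/Neu no member was higher, against 3.65%, and 5 were lower, namely Crabp1, Crabp2, Cyp26a1, Stra6 and Aldh1a2, against 2.69%. The median change of the 8 members was 1.02 at ELA–NPC but -1.31 at NPC–NPC/Neu, beside -0.01 and -0.02 over all gene names, and both kept their sign under each of the 6 alternatives run. At ES–ELA the members split evenly, with a median of -0.22 that turned positive under some alternatives. The Stra8 count at ELA–NPC uses its measured difference, whereas its bound was 1.80-fold. Of 17 changes between consecutive stages of member probes that were well above background on all 4 arrays concerned, 15 had the same direction in total RNA and Ago-RNA. The exceptions were Crabp1 at ES–ELA and Dhrs3 at ELA–NPC. The matching share over all gene names was not computed, so the count is not read as a trait of these members.

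**Figure D3:**
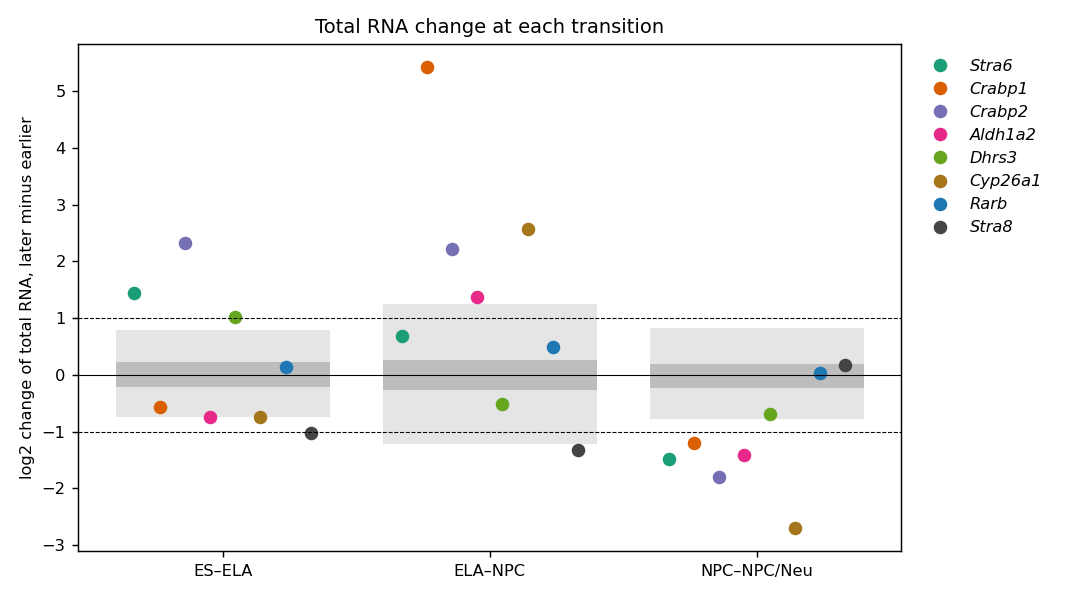
Log2 change of total RNA, later minus earlier stage (y axis), of the 8 genes at the 3 transitions (x axis), with a dot per gene (Rarb as the mean of 3 probes) over the middle 50% (dark grey) and 90% (light grey) of all gene names. Dashed lines mark a change of 1 in each direction, and 5 members lie below the lower line at NPC–NPC/Neu while none lies above the upper one.

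No member reached an E of 2 in either direction at any stage, the limit used in this study for strongly enriched mRNAs. An E of 1 or more from 0 was reached by 0 members in ES, against 13.9% of all gene names, and by 0 in ELA, against 4.55%. In NPC 1 member, Crabp2, reached it, against 7.48%, and in NPC/Neu 0 did, against 15.1%, although Stra6, Crabp2 and Dhrs3 lay between 0.86 and 0.98. A variation of E of 1 or more was reached at ES–ELA by 1 member, Crabp1, against 9.54% of gene names. At ELA–NPC 0 members reached it, against 4.34%, and at NPC–NPC/Neu 1 did, again Crabp1, against 4.71%. From ES to NPC/Neu the E of Crabp2, Stra6 and Dhrs3 was higher by 1.37, 1.23 and 1.04, whereas that of Crabp1 differed by 0.05, less than the SD of repeated spots. The 2 cellular retinoic acid binding proteins, close relatives, were thus on opposite sides of 0 in NPC/Neu, at -0.85 for Crabp1 and 0.96 for Crabp2, and kept those sides under each of the alternatives.

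**Figure D4:**
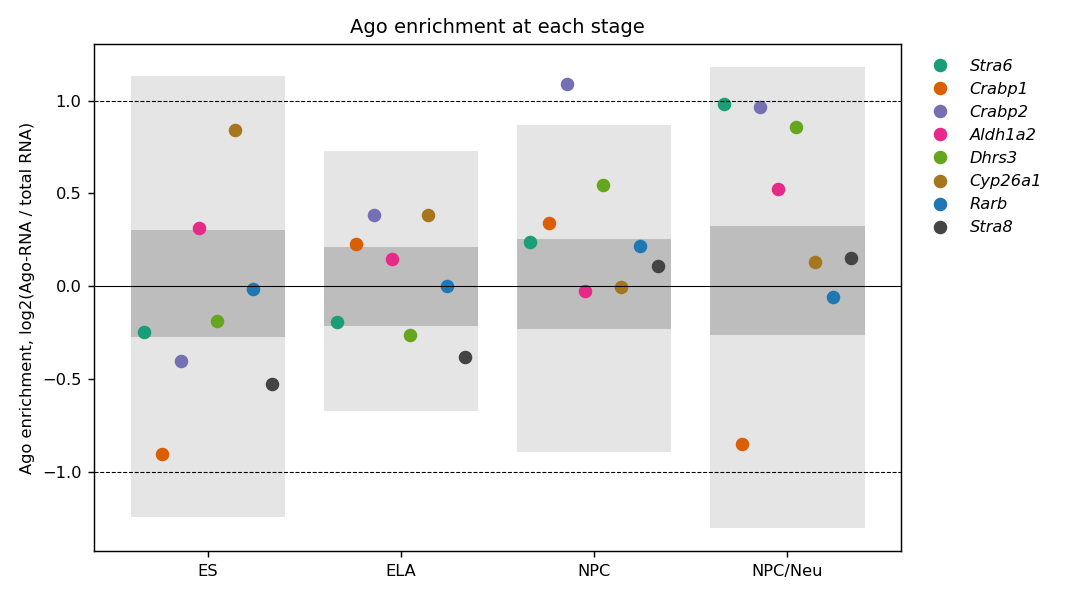
Ago enrichment E, log2 Ago-RNA minus log2 total RNA (y axis), of the 8 genes at the 4 stages (x axis), with a dot per gene (Rarb as the mean of 3 probes, dim values included) over the middle 50% (dark grey) and 90% (light grey) of all gene names. Crabp2 in NPC, at 1.09, is the only dot past the dashed lines at 1 and -1, and Crabp1 is the lowest dot in ES and NPC/Neu.

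The profiles most like each member's over all 8 arrays were found by the root mean square difference of centred log2 values among 14931 gene names, with values near background included. For Crabp1 these were Emx2 (0.49 on the log2 scale) and Fgfbp3 (0.57), and for Crabp2 Ntf3 (0.56) and Tsc22d3 (0.62). Cyp26a1 lay closest to Slc2a3 (0.32) and Cdx2 (0.36), and Stra6 to Bmf (0.21) and Mdk (0.31). The closest to Stra8 were Ostf1 (0.11) and Slc12a8 (0.16), to Dhrs3 Hist1h4i (0.21) and Cpt2 (0.23), and to Aldh1a2 Krt15 (0.16) and Magee2 (0.17). Cdx2, a caudal-type homeobox gene of the posterior embryo and trophectoderm, had a total RNA signal of 7.04 in ES, 6.63 in ELA, 9.29 in NPC and then 6.88 in NPC/Neu, the same rise and fall as Cyp26a1. Of 6 mesoderm markers, 5, 3, 4 and 3 were well above background in ES, ELA, NPC and NPC/Neu. Their summed signal was 11.29, 11.06, 12.57 and 12.39, and T (brachyury) was at 7.19, 7.19, 9.73 and 9.31. Kdr, with the highest signal of the 6, was at 10.51, 10.25, 12.08 and 11.94. Its 2 probes disagreed at ELA–NPC, at 6.96 (not well above background) and 10.79 for one and 13.54 and 13.38 for the other. Tbx6 changed by 0.14 at ELA–NPC. Hand1 and Meox1 were highest in ES, at 7.80 and 7.47, and Mesp1 was not well above background in total RNA at any stage. Of the 7 endoderm markers, Foxa2 was at 6.76, 8.01, 9.55 and 10.10, Dab2 at 7.66, 8.50, 10.18 and 8.41, and Sox17 changed by 0.99 at ELA–NPC. Afp, Apoa1 and Gata6 were not well above background in total RNA at any stage, and Gata4 was highest in ELA, at 7.66. The summed signal of the 7 endoderm markers was 9.81, 10.29, 11.34 and 10.96, with 4, 3, 4 and 3 of them well above background. The part of other germ layers in the NPC levels of Cyp26a1 and Aldh1a2 was not tested.

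The wider pathway was read through 50 other genes in 6 roles, of which 44 were well above background on at least 1 total RNA array. In total RNA, 2 of the 50 were higher by 1 or more and 4 lower at ES–ELA, 12 higher and 2 lower at ELA–NPC, and 3 and 4 at the last transition. Over all gene names the matching shares were 3.04% and 3.09%, 7.13% and 6.62%, and 3.65% and 2.69%. Their median change was 0.12, 0.15 and 0.06 at the 3 successive transitions, beside 0.01, -0.01 and -0.02 over all gene names. At the last transition the share that was lower by 1 or more was thus 4 of 50 in the list and 5 of 8 among the members, beside 2.69% of all gene names.

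Among 6 retinol uptake and storage genes, 1 was higher and 1 lower at ELA–NPC, against 7.13% and 6.62% of all gene names. The one that was higher, Ttr, the plasma carrier of thyroxine and of the retinol-binding protein, was well above background in total RNA only in NPC, at 10.32. The lower one, Rbp7, a cellular retinol-binding protein, had a total RNA signal of 12.21 in ES, 11.82 in ELA, 7.65 in NPC and finally 7.81 in NPC/Neu. Among 13 synthesis genes, 1 was higher at ELA–NPC and none lower, against the same shares. Aldh1a3, a retinaldehyde dehydrogenase like Aldh1a2, was not well above background in ELA or NPC total RNA. It stood at 7.11 in ES and 8.85 in NPC/Neu, where its E was 1.47. Adh4, an alcohol dehydrogenase, was well above background in total RNA only in ES, at 7.75. Thus Aldh1a2 and Aldh1a3 had their highest total RNA at different stages, NPC and NPC/Neu.

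The breakdown enzyme Cyp26b1 stood near its NPC level in NPC/Neu, unlike Cyp26a1. Its total RNA signal was 7.02 in ES, where it was not well above background, 7.16 in ELA, 11.87 in NPC and then 11.75 in NPC/Neu. From NPC to NPC/Neu it changed by -0.12, where the SD between repeated spots at log2 signals of 10 or more was 0.0714, against at least a 6.04-fold fall for Cyp26a1. The other breakdown gene of the list, Cyp26c1, was not well above background in total RNA at any stage.

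Of the receptors other than Rarb, Rarg changed most. Rarg had a total RNA signal of 14.47 in ES, 14.08 in ELA, 10.24 in NPC and finally 8.92 in NPC/Neu, the largest fall of the 50 genes from first to last stage (-5.55), and its E lay between 0.83 and 1.44 at all 4 stages. Rara, with 2 probes, was at a mean of 12.04, 12.23, 11.50 and 11.41, and Rxrb at 14.57, 14.66, 15.11 and 14.83. The 2 probes of Rxra disagreed at ES–ELA, at 7.42 and 8.62 for one and 8.50 and 8.07 for the other. Those of Rxrg disagreed at the last transition, at 10.87 and 8.66 in NPC and NPC/Neu for one and 12.18 and 12.27 for the other. Fabp5, which can carry retinoic acid to the receptor Ppard, rose over the course, from 15.79 in ES to 17.78 in NPC/Neu. Among 6 coregulators, Ncoa1 was 2.11 higher and Ncoa3 2.06 lower (a log2 change of -2.06) in NPC/Neu than in ES. The E of Ncoa1 was 1.56 in ES and 0.50 in ELA, a fall of more than 1.

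Of 16 other retinoic acid responsive genes, 8 were higher by 1 or more at ELA–NPC, against 7.13% of all gene names. None was lower, against 6.62%. The 8 were Hoxa2, Hoxb2, Hoxb4 and Hoxd4, homeobox genes of hindbrain and spinal cord patterning, their cofactors Meis1 and Meis2, and the orphan receptors Nr2f1 and Nr2f2. The median change over the 16 was 0.95, beside -0.01 over all gene names. Nr2f1 was at 7.11 in ES, 7.51 in ELA, 15.40 in NPC and then 16.18 in NPC/Neu. Hoxb1, an early direct target of retinoic acid in the embryo, was not well above background in total RNA at any stage. At NPC–NPC/Neu 1 of the 16, Foxa1, was higher and none was lower, against 3.65% and 2.69% of all gene names. Of the 8 members, 5 were lower there. Cdx1, a caudal-type homeobox gene, was highest in ES, at 8.35, and was at 7.28 in ELA and 7.18 in NPC.

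**Figure D5:**
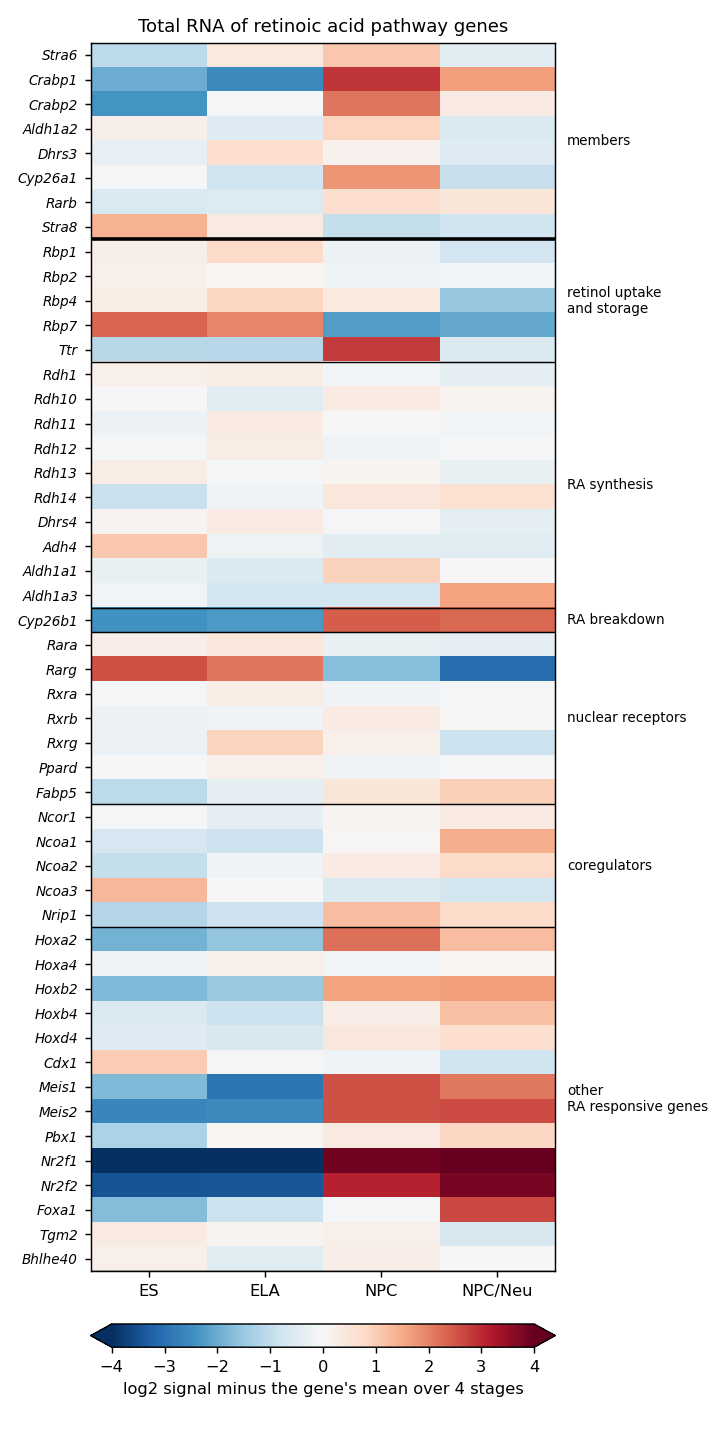
Total RNA of the 8 members and of 42 pathway genes, each well above background on at least 1 total RNA array (rows, grouped by role) at the 4 stages (columns), coloured by log2 signal minus the gene's mean over the stages. Crabp1, Cyp26a1, Cyp26b1, Meis1, Meis2, Nr2f1 and Nr2f2 turn red in NPC, and Cyp26a1 but not Cyp26b1 turns blue again in NPC/Neu.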

How the data were processed

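Agilent SurePrint G3 Mouse one-colour (Cy3) arrays measured total RNA and Ago-RNA at 4 stages, 8 arrays on 1 slide. Per the labels, RNA of 3 independent experiments was pooled and 50 ng labelled. The deposited scanner files hold mean signal and local background intensity per spot, written by Feature Extraction (version 10.7.3.1 per the file headers, 9.1 in the submitters' processing notes) with mm9 annotation; the authors deposited them before normalization. No count or depth exists for arrays, and their number limits the precision. The control immunoprecipitations were not used here.

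As in the study's methods, intensities were background-corrected and quantile normalized over all 8 arrays in limma (here version 3.58.1, R 4.3.3). The correction used, normexp with an offset of 50, was chosen here, and the offset shrinks changes of dim probes. Control and irregular spots were left out, spots of a probe and then probes of a gene name were averaged on the log2 scale. The background correction and quantile normalization were tested on simulated data for bright probes only. Dim probes and the later steps were not tested in this way. A value was called past 1 on the log2 scale. Members, gene lists and alternatives were chosen with earlier results of these data known. Named were all members, per pathway role the highest and lowest change from ES to NPC/Neu, all RAR and RXR genes, the stage markers and the 2 closest profiles per member whose range was at least 1; other pathway genes named were those counted past 1 and, chosen after their values were seen, Cyp26c1 and Hoxb1. Some listed genes are counted but not reported here. Probe positions (mm9) came from the array annotation and were set against GENCODE vM1 genes. Exact matches were searched in its protein-coding transcripts, not in the genome, and promoters came from RefSeq. The neuronal marker Map2 was not analysed here. Alternatives were an offset of 16, scaling of the processed signal by its 75th percentile, separate normalization of the fractions, only probes detected on both arrays compared, the brightest probe per gene, and irregular spots kept. Tables were made in Python 3.11.15 with pandas 2.3.3.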

Additional observations from a re-analysis of the deposited data

How the results depend on the processing

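No member value of 1 or more changed sign under any of the 6 alternatives. Of 23 such values, 23 stayed past 1 with the brightest probe and with an offset of 16, 22 with irregular spots kept, 21 under a 75th percentile scaling of the processed signal and 18 with the fractions normalized separately, and all 19 that could be read stayed past it with only well-measured probes. The 75th percentile scaling moved the median of all gene names by 0.15, -0.39 and 0.15 for total RNA at the 3 transitions and by -0.60, -0.31, -0.03 and -0.38 for E at the 4 stages. Under it, 2 members were lower at ES–ELA in place of 1, against 7.65% of gene names. At ELA–NPC 5 were higher in place of 4, against 11.3%, and 5 were also higher with the brightest probe per gene, against 7.92%. Under the scaling, an E of 1 or more from 0 was reached by 3 in ES, 0 in NPC and 1 in NPC/Neu, in place of 0, 1 and 0. The shares of all gene names were then 31.2%, 19.6% and 29.2%. The member in NPC/Neu was Rarb, at -1.44, a mean that includes probes not well above background. Under the scaling the counts for the variation of E were 2 at ES–ELA and 1 at ELA–NPC, in place of 1 and 0. The matching shares of gene names were 26.2% and 16.9%. At NPC–NPC/Neu the count stayed at 1, against 16.8%, but the member was Rarb, at -1.125, and Crabp1 was at -0.70. At ES–ELA 2 members were higher in place of 3 with irregular spots kept, against 3.46% of gene names. With the fractions normalized separately 2 were also higher there, against 2.94%, and 0 were lower (Stra8 at -0.97), against 3%. Under that separate normalization 0 reached an E of 1 in NPC (Crabp2 at 0.88), against 9.6% of gene names. In NPC/Neu 2 did, against 17.2% of gene names, and 0 reached a variation of 1 at NPC–NPC/Neu, against 4.46%. With only well-measured probes 0 of 5 members were lower at ELA–NPC, against 9.19% of gene names, since Stra8 could not be read in NPC. With an offset of 16, 1 member reached an E of 1 in NPC/Neu, against 17.7% of gene names. The cause of the other shifts was not tested. No paired analysis was possible because each condition had 1 array and the labels carry no replicate numbers. With 1 array per condition, no result has a replicate check, and the spread of repeated spots bounds the error only from below. Rarb, Cyp26a1 and Stra8 lay near background at 2 stages each, so their values there are limits. Stra6 was well above background in ES but close to the lowest signal that counted as such.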
